A study of Triticum turgidum subsp. durum with 20 samples.

Results

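The genes described here lie at the distal ends of the 14 chromosomes of the A and B genomes of wheat. A high-confidence gene model was taken as distal when it held at least 200 counts summed over all libraries and began in the outer 10% of its chromosome at either end, with the largest end coordinate of any gene model taken as the chromosome length. Position and total count, and no difference between stages, chose these genes. The rule gave 10300 distal genes among 35964 high-confidence genes with at least 200 counts on these chromosomes, or 28.6%, and the remaining 25664 are called other genes below. With unanchored scaffolds and low-confidence models, the count table held 190381 gene models for these genomes.

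RNA came from shoot apices of Kronos, a tetraploid durum wheat cultivar, at 5 stages of the Waddington scale of spike development, named W1 and W2 for the early ones and W3.0, W3.25 or W3.5 for the later ones. Every stage had 4 replicate libraries. W1 is the vegetative apex and W3.5 the terminal spikelet stage, and the stages between cover the formation of the double ridge and of the first organs of the spikelets. Every library came from this 1 cultivar, which carries a VRN-A1 allele with a deletion in intron 1 that gives spring growth and the Ppd-A1a allele of reduced photoperiod sensitivity, grown untreated under long days. Pools held about 20 apices for a library of W1 or W2 and about 12 for a later one, so that p-values measure the spread between pools. Because whole apices were pooled, fewer cells of a type and less RNA per cell cannot be told apart.

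Wheat chromosomes are large, and their ends differ from their middle parts. Genes are dense and meiotic crossovers frequent towards the ends, whereas the central parts are rich in repeats and seldom recombine. Distal segments are also known for duplicated gene families, among them many of the genes for disease resistance.

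Library totals ranged from 22229388 to 29655553 counts. Levels are given as CPM, counts scaled to a common library size, after TMM scaling, a correction for libraries of unequal composition, and the scaling factors ran from 0.890 to 0.935 at W1 and from 1.05 to 1.06 at W3.5. Genes that mark the stages moved across the series, with TaSVP-B2, of the MADS-box clade known for early stages, averaging 101, 92.3, 44.8, 30.2 and 17.8 CPM from W1 to W3.5. TaAP1-A3, of the clade that promotes the reproductive transition, averaged 1.18, 20.5, 66.1, 80.6 and 82.9 CPM over the same 5 stages.

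Distal chromosome segments held 13.1 high-confidence gene models per Mb, against 5.49 per Mb in the rest of these chromosomes. Of the 26584 high-confidence models there, 38.7% reached 200 counts and 35.3% had no count in any library, against 57.8% and 20.1% of the 44405 models elsewhere. The share of models that reached 200 counts ran from 26% at the high-coordinate end of 7B to 57.8% at the low-coordinate end of 4A. Among genes with 200 counts, the densities were 5.09 distal genes per Mb and 3.17 other genes per Mb.

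Distal genes and other genes that passed the count minimum had close median levels per length. The median gene had 6.11 TPM (a level per length, with the whole gene span as length) among distal genes and 6.31 TPM among other genes, and the median spans were 3486 bp and 3756 bp. Low levels were nevertheless more frequent, since 29.3% of distal genes and 23.3% of other genes fell in the lowest of 4 equal classes of all these genes by CPM. The median SD between libraries of a stage was 0.154 on the log2 scale for distal genes and 0.139 for other genes. Within the 4 classes the values lay closer. From the lowest to the highest class they were 0.360, 0.172, 0.112 and 0.0867 for distal genes, and 0.348, 0.171, 0.110 and 0.0840 for other genes. Gene models that overlap another model made up 10.2% of distal genes and 12.5% of other genes, and the counts of such genes are uncertain because reads over more than 1 model were dropped and strand was not recorded.

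The rule left narrow margins on position and count. Just inside the limit at the low end stood TraesCS2B02G116900 at 9.999% of its chromosome, and just outside TraesCS7A02G115500 at 10.008%. At the high end TraesCS5A02G458500 at 90.004% was inside and TraesCS3B02G503600 at 89.998% outside. In the distal segments 12 genes had exactly 200 counts and 6 had 199. One distal gene, TraesCS6B02G014300 (chr6B:8780943-8782484 in IWGSC RefSeq v1.0, the build of all coordinates below), was not tested because it did not pass the filter on low counts. It held 204 counts, with 11 to 65 counts in each W1 library and 1 to 7 in each library of the other stages, and the other 10299 distal genes were tested.

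Of the counts that fell in genes with 200 counts, distal genes took 28.60 ± 0.122, 28.61 ± 0.0650, 28.30 ± 0.0849, 28.26 ± 0.0488 and 28.07 ± 0.0408% from W1 to W3.5 (SD, n = 4 per stage). The 4 libraries lay between 28.2% and 28.4% at W3.0 and between 28.6% and 28.7% at W2, with no overlap. At W3.5 the libraries reached at most 28.12%, below the lowest W3.25 library at 28.21%, so the plot of the share by library steps down at W3.0 and again at W3.5. The steps are small, and no test was made of this sum over chosen genes.

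**Figure D1:**
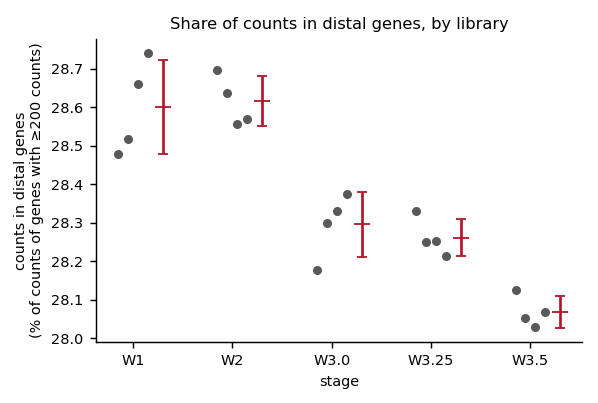
Share of counts in distal genes, as a percentage of the counts of all genes with at least 200 counts, for each of the 20 libraries by stage, with points for libraries and lines for stage means. All 4 libraries of W3.0 lie below all 4 of W2, and all 4 of W3.5 lie below all 4 of W3.25.

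A gene was called a differentially expressed gene (DEG) between 2 stages when edgeR's quasi-likelihood test and the Wald test of DESeq2 both passed 0.01 after Benjamini-Hochberg adjustment and had the same sign, over all 48336 gene models tested. Log2 fold changes, their standard errors (SE) and adjusted p-values below are those of edgeR. Change over the 5 stages, read from edgeR's F test with an adjusted threshold of 0.05, was found for 6923 distal genes, or 67.2%, against 67.3% of other genes and 63.1% of all gene models tested. The distal share was thus close to its background.

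The first comparison asked how the apex changed between the vegetative stage and W2. At W2 against W1, 2774 distal genes were DEGs, which is 26.9% of those tested, against 26.3% of other genes and 22.9% of all gene models tested. Lower levels at W2 were more frequent, with 954 DEGs higher at W2 (9.26%) and 1820 lower (17.7%). Among other genes 8.72% were higher and 17.5% lower, and among all gene models tested 8.3% and 14.6%. Calls with a change of at least 2-fold covered 827 distal genes (8.03%), beside 6.28% of other genes and 6.53% of all gene models tested. The median log2 fold change was -0.02 for distal genes and -0.03 for other genes. The split rests on the scaling. With library totals alone, edgeR called 1736 distal genes higher and 1255 lower, so that the lower share of the calls was 42.0% in place of 65.6%, and the median of all gene models shifted by 0.10 on the log2 scale.

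Between W2 and W3.0 the distal genes were called lower more often than the other genes. Of the distal genes tested, 2406 were DEGs at W3.0 against W2 (23.4%), beside 21.2% of other genes and 19.2% of all gene models tested. Lower at W3.0 were 1589 distal genes (15.4%), beside 12.6% of other genes and 11.6% of all gene models tested. Higher were 817 distal genes (7.93%), beside 8.51% of other genes and 7.64% of all gene models tested. Genes are not replicates, so these percentages are descriptions and their difference was not tested. With library totals alone, edgeR called 1007 distal genes higher and 1408 lower, a lower share of 58.3% in place of 66.0%. The percentage called lower was then 13.7% of distal genes and 10.8% of other genes. Calls with a change of at least 2-fold covered 1109 distal genes (10.8%), beside 7.61% of other genes and 8.12% of all gene models tested.

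The share of genes called lower at W3.0 changed along the chromosome. In steps of 5% of chromosome length, from the end to the middle, it was 16, 14.8, 14, 14, 12.8, 14.2, 12.0, 12.1, 10.5 and 9.02%. The share called higher lay between 7.87% and 9.07% in all 10 steps and followed no such course. At W2 against W1 the share called lower stayed between 16.5% and 18.7% in these steps. The share called higher at W2 was 8.98% to 10.2% in the 5 outer steps and 7.61% to 8.07% in the 5 inner ones, without overlap. The plot of calls by distance shows a slope for lower calls at W3.0 and a step down towards the middle for higher calls at W2.

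**Figure D2:**
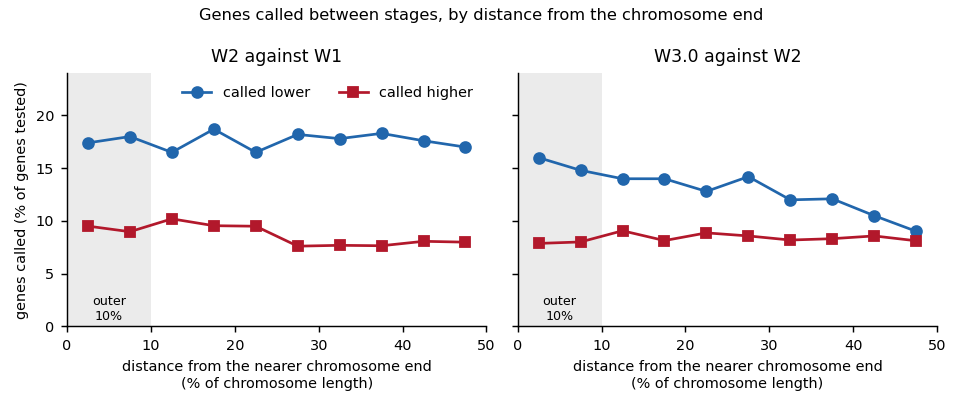
Percentage of genes called higher or lower in W2 against W1 and in W3.0 against W2, by distance from the nearer chromosome end in steps of 5% of chromosome length. Each point is a share of the genes tested in that step, and lower calls at W3.0 run from 16.0% in the outermost step to 9.02% in the innermost.

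Because low levels were more frequent among distal genes, the shares were also read within 4 classes of equal size by mean CPM over all these genes. From the lowest to the highest class, 22.2, 12.1, 10.6 and 15.1% of distal genes were lower at W3.0, against 18.1, 10.2, 9.83 and 13% of other genes. Distal genes had the larger share in each class. On the A genome 15.2% of distal genes and 11.8% of other genes were lower, and on the B genome 15.7% and 13.5%. Taken by chromosome, distal genes were lower more often than the other genes of the same chromosome on 12 of the 14 chromosomes. The low-coordinate ends had 15% and the high-coordinate ends 15.8% of their genes lower at W3.0.

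The 28 chromosome ends ranged widely. Each held between 241 distal genes, at the high end of 7B, and 551, at the high end of 2A. At W3.0 against W2 the share called ran from 14.2% at the low end of 6A to 27.5% at the low end of 3B. At W2 against W1, a comparison that shares the W2 libraries, it ran from 18.3% at the low end of 6A to 33.7% at the low end of 3B. More genes were lower than higher at W3.0 at 26 of the 28 ends, a direction shared by other genes, of whose DEGs 59.8% were lower. The low end of 5A, with 31 genes higher and 30 lower, and the low end of 6A, with 27 higher and 25 lower, were the exceptions. The largest shares called lower were 20.8% at the high end of 4A, 20.5% at the low end of 2B, 19.7% at the high end of 4B and 19.2% at the low end of 7A, and the smallest was 6.83% at the low end of 6A. In W2 against W1 all 28 ends had more genes lower than higher under TMM scaling. Of the DEGs in that comparison, 65.6% were lower among distal genes and 66.8% among other genes.

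**Figure D3:**
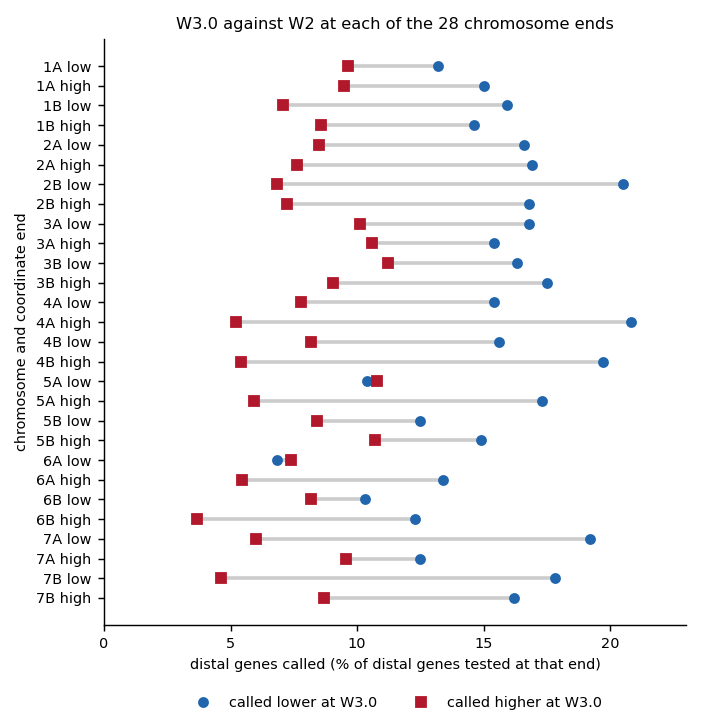
Percentage of distal genes called higher and lower at W3.0 against W2 at each of the 28 chromosome ends, low and high meaning the low and high coordinates of the chromosome. Lower calls exceed higher calls at 26 ends and fall to 6.83% at the low end of 6A. Among other genes 12.6% were called lower and 8.51% higher.

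Few distal genes changed between the later stages. At W3.25 against W3.0, 100 distal genes were DEGs (0.971%), 60 higher and 40 lower, beside 0.986% of other genes (0.561% higher, 0.425% lower) and 0.821% of all gene models tested (0.474% higher, 0.348% lower). At W3.5 against W3.25, 95 were DEGs (0.922%), 35 higher and 60 lower, beside 0.795% of other genes (0.32% higher, 0.475% lower) and 0.701% of all gene models tested (0.288% higher, 0.414% lower). With library totals alone, edgeR called 50 higher and 46 lower in this last comparison. Both counts rest on single libraries, since leaving out 1 library at a time gave 56 to 130 DEGs at W3.25 and 34 to 172 at W3.5.

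Over the whole series, 5481 distal genes differed at W3.5 against W1 (53.2%), beside 53.0% of other genes and 49.2% of all gene models tested. Of these, 2108 were higher (20.5%) and 3373 lower (32.8%), beside 22.2% higher and 30.8% lower among other genes and 22.3% and 26.9% among all gene models tested. Changes of at least 2-fold were called for 1950 distal genes (18.9%), beside 15.4% of other genes and 17.0% of all gene models tested. Library totals alone turned the split, with 3620 higher and 2407 lower in edgeR. Of the distal genes with a change in the F test, 49.7% peaked at W1, against 48.3% of other genes, and 18.9% peaked at W3.5, against 22% of other genes. A range of stage means of at least 1 on the log2 scale was found for 2417 distal genes (23.5%) and for 19.6% of other genes.

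A name, transcription factor family or product was at hand for 17 distal genes, 15 of them transcription factors from the network that the study built on these libraries and 2 genes for a photosystem I subunit. Because the study chose them on these samples, their directions are not independent evidence. At W2 against W1, 12 of the 17 were higher and 3 lower. At W3.0 against W2, 8 were higher and 6 lower, at W3.25 against W3.0 1 was higher and 2 lower, at W3.5 against W3.25 1 was lower, and at W3.5 against W1 11 were higher and 4 lower. The background shares for these comparisons are those given above. The lower call at W3.5 against W3.25, for TraesCS1A02G418200, was lost without W3.25 replicate 1 or 4 or W3.5 replicate 1, 2 or 3, and the lower call at W3.25 for TraesCS1B02G448200 without W3.0 replicate 3 or 4 or W3.25 replicate 2, 3 or 4.

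GATA factors, zinc finger proteins known in plants for roles in light and nitrogen responses, formed pairs with opposite courses. TraesCS1A02G418200 (chr1A:575671966-575673602) had 40.2, 40.6, 43.6 and 48.4 CPM in the W3.0 libraries, against 12.8, 16.2, 16.6 and 17.6 CPM in those of W2. The groups did not overlap, and the log2 fold change was 1.45 (SE 0.12, adjusted p = 4.82e-10). Its mean was 4.45 CPM at W1, 24.4 CPM at W3.25 and 15.8 CPM at W3.5, so that it was highest at W3.0. TraesCS1B02G448200 (chr1B:667619947-667621006) was also highest at W3.0, with means of 2.86, 8.22, 17.8, 11.3 and 7.50 CPM over the 5 stages. It was higher at W3.0 than at W2 by 1.12 on the log2 scale (SE 0.13, adjusted p = 1.33e-07).

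The other GATA genes fell. TraesCS4B02G374400 (chr4B:658211040-658212993) had 7.67, 8.49, 9.75 and 10.9 CPM in the W2 libraries, against 20.2, 23.3, 24.7 and 29.1 CPM at W1. At W3.0 it fell further to a mean of 1.83 ± 1.1 CPM, against 9.19 ± 1.40 CPM at W2 (SD, n = 4 each). The change was -2.32 on the log2 scale (SE 0.27, adjusted p = 1.4e-07). TraesCS5A02G538600 (chr5A:696924777-696926730), with a span of the same 1954 bp, averaged 26.1, 12.0, 3.76, 3.13 and 4.13 CPM from W1 to W3.5 and was lower at W3.0 than at W2 with a change of -1.67 on the log2 scale (SE 0.18, adjusted p = 6.31e-08).

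The genes of the bZIP family, leucine zipper factors that bind DNA as dimers, rose. TraesCS5A02G508600 (chr5A:673089350-673090118) had 30.9, 33.1, 34.6 and 38.3 CPM in the W2 libraries, against 7.50, 9.10, 9.37 and 9.62 CPM at W1, with no overlap. It reached a mean of 63.2 CPM at W3.0 and stayed at 59.7 CPM at W3.25 and 52.9 CPM at W3.5. At W2 the change was 1.94 on the log2 scale (SE 0.09, adjusted p = 6.07e-15). TraesCS2A02G495400 (chr2A:726985966-726986810) rose to 17.2 ± 3.23 CPM at W2, against 4.97 ± 0.951 CPM at W1 (SD, n = 4 each).

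Auxin response factors (ARFs), which bind the promoters of auxin-regulated genes, moved in both directions. TraesCS3A02G442000 (chr3A:684040773-684045606) averaged 261, 376, 415, 394 and 390 CPM over the 5 stages, and was called higher at W2 only among consecutive comparisons (log2 fold change 0.53, SE 0.07, adjusted p = 2.84e-06). TraesCS3A02G449300 (chr3A:688688783-688693672), a few Mb away, had 117, 124, 128 and 132 CPM at W2, against 79.7, 90.6, 91.9 and 92.2 CPM at W1. TraesCS2B02G578500 (chr2B:766557473-766568984), which overlaps another gene model, ran the other way. It fell to 213 ± 15.7 CPM at W3.0, against 325 ± 26.8 CPM at W2 (SD, n = 4 each), with a change of -0.61 on the log2 scale (SE 0.09, adjusted p = 3.26e-06).

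The remaining factors belonged to the B3, Trihelix, TCP, bHLH and ERF families. The B3 gene TraesCS4A02G055500 (chr4A:46282730-46284222) had means of 0.390, 2.03, 4.12, 11.2 and 13.2 CPM, and was called higher in each of the first 3 steps. The call at W3.0 was lost without W2 replicate 1 or W3.0 replicate 1 or 2, with log2 fold changes from 0.90 to 0.93. Its libraries held 10.6 to 12.4 CPM at W3.25, against 2.34 to 5.14 CPM at W3.0, with a change of 1.44 on the log2 scale (SE 0.18, adjusted p = 2.47e-05). The Trihelix gene TraesCS4B02G019200 averaged 19.2, 31.0, 49.2, 40.9 and 33.6 CPM. TCP factors control growth of meristems and lateral organs, and TraesCS6B02G462100 (chr6B:715448937-715450031) fell to 35.7 ± 1.70 CPM at W2, against 49.5 ± 4.00 CPM at W1, and to 27.4 ± 1.85 CPM at W3.0. The bHLH gene TraesCS7B02G026300 averaged 15.7, 23.7, 40.9, 41.1 and 39.9 CPM, and the bHLH gene TraesCS7A02G543300 91.0, 133, 130, 117 and 99.9 CPM. The ERF gene TraesCS3B02G042400, which overlaps another model, had means between 60.8 and 76.8 CPM and was a DEG in none of the 5 comparisons.

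Photosystem I subunit IV is a small protein on the stromal side of the complex, at which ferredoxin takes up electrons. Its genes on 5A and 5B, TraesCS5A02G482800 (chr5A:654123665-654124792) and TraesCS5B02G496000 (chr5B:663174273-663175299), both rose at W2 and fell at W3.0. TraesCS5A02G482800 had 20.5, 25.7, 25.9 and 26.1 CPM at W2, against 4.95, 6.36, 6.87 and 8.51 CPM at W1 (log2 fold change 1.88, SE 0.11, adjusted p = 2.08e-12). TraesCS5B02G496000 had 22.6, 24, 24.7 and 27.6 CPM at W2, against 8.09, 9.02, 11.1 and 14.4 CPM at W1 (log2 fold change 1.22, SE 0.12, adjusted p = 6.34e-09). At W3.0 against W2 their log2 fold changes were -0.37 and -0.44, with adjusted p-values of 0.00733 and 0.00303. The call for TraesCS5A02G482800 at W3.0 was lost without W2 replicate 2, 3 or 4 or W3.0 replicate 1, 2 or 3, with log2 fold changes from -0.38 to -0.32. That for TraesCS5B02G496000 was lost without W2 replicate 2 or W3.0 replicate 1 or 4, with log2 fold changes from -0.41 to -0.38. The plot of annotated genes by library shows each course.

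**Figure D4:**
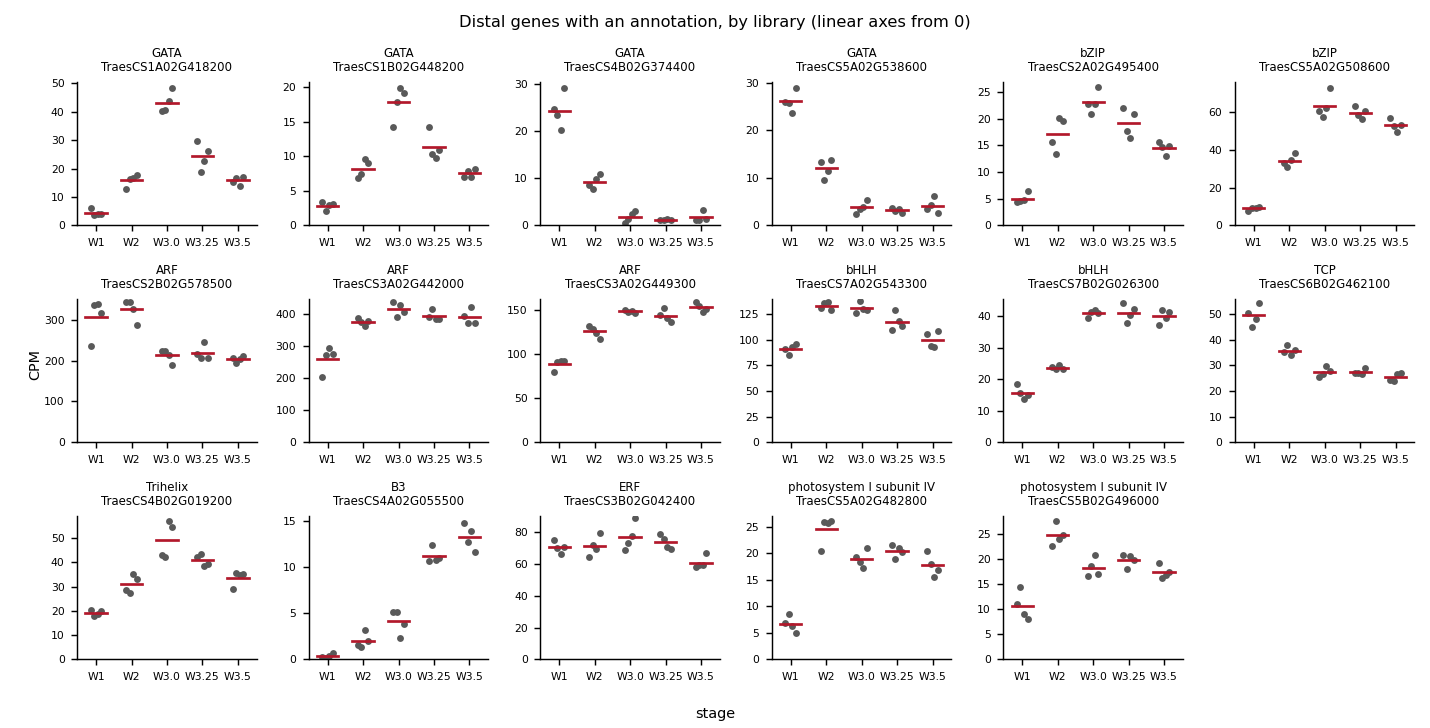
CPM of the 17 annotated distal genes in each of the 20 libraries, by stage, on linear axes from 0, with points for libraries and lines for stage means. The GATA genes on 1A and 1B are highest at W3.0 at 43.2 and 17.8 CPM, and the B3 gene on 4A rises to 13.2 CPM at W3.5.

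The largest changes belonged to genes with no name at hand. They were taken by size of the fitted change among DEGs whose libraries did not overlap between the stages, which fixes that their groups stand apart. TraesCS7A02G101900 (chr7A:62824353-62827482) had 10.2, 11, 12.6 and 13.2 CPM at W2, against 0.314, 0.699, 0.902 and 1.17 CPM at W1. It was back at 2.7 CPM at W3.0 and stood at 9.76 CPM at W3.5. TraesCS2B02G587800 (chr2B:774944981-774951613) was higher at each of the first 2 steps, with means of 0.219, 2.64, 9.52, 12.2 and 12.2 CPM. TraesCS1B02G388200, TraesCS4A02G431500 and TraesCS3B02G067500 rose to between 0.759 and 1.58 CPM at W2, against 0.0518 to 0.0600 CPM at W1.

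Of the 5 genes that fell most at W2, 4 stayed below 0.11 CPM at every later stage mean. TraesCS4B02G384000 (chr4B:663520686-663522249) had 1.59 to 4.98 CPM at W1 and no count at W2, so that it was at least 105-fold lower against a floor of 3 counts over the 4 W2 libraries. The call was lost without any single W1 library or W3.5 replicate 3, although no W2 library had a count under those settings. TraesCS2A02G063100, TraesCS4B02G342100 and TraesCS7B02G456400 held 2 or 3 counts over W2, against 225, 219 and 233 counts over W1.

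TraesCS1A02G030900 (chr1A:14253391-14257167) was low at W2 alone. It had 0 to 0.0458 CPM at W2, against 4.01, 4.85, 7.11 and 19.2 CPM at W1, and 3.5, 5.57, 7.19 and 17.0 CPM at W3.0. With 3 counts in all at W2 and 866 at W3.0, the ratio of W3.0 to W2 was 269, with a counting interval of 91.8 to 1308. TraesCS5B02G544900 (chr5B:697377146-697381642) dipped likewise, with means of 28.2, 1.36, 22.1, 38.1 and 22.8 CPM, and 12.4 to 58.7 CPM in the W1 libraries. Both genes varied widely between libraries of the same stage.

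Other rises at W3.0 were those of 3 genes. TraesCS2A02G488900 had 2.77 to 17.3 CPM at W3.0, against 0.549 to 0.945 CPM at W2, and averaged 25.9 CPM at W3.25. TraesCS2A02G017500 had 1.02 to 6.01 CPM at W3.0, against 2 counts over all of W2, and TraesCS7B02G063700 reached 1.13 CPM. Among falls, TraesCS5A02G532000 (chr5A:689916254-689918981) had 0.0836 to 0.185 CPM at W3.0, against 5.83, 14.7, 15.7 and 15.8 CPM at W2, and its mean at W1 was 54.4 CPM. On the log2 scale it fell by 6.33 (SE 0.47, adjusted p = 5.6e-11). TraesCS5A02G521000 (chr5A:681486598-681488172) fell to 0.0769 CPM at W3.0, against 8.80 CPM at W2 and 27.3 CPM at W1. TraesCS1A02G383900 held 1 count over W3.0. The neighbours TraesCS3A02G531300 and TraesCS3A02G531400 (chr3A:744266478-744287543) averaged 0.0302 and 0.00927 CPM at W3.0, against 2.7 and 2.0 CPM at W2. Their spans of 782 and 789 bp lie in tandem on 1 strand.

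Late rises were sharp in a few genes. TraesCS3B02G021500 (chr3B:9097656-9099110) averaged 0.151, 0.166, 1.05, 7.30 and 37.8 CPM over the stages, and had 24.3, 38.8, 41.9 and 46.0 CPM at W3.5, against 5.24, 6.68, 7.99 and 9.31 CPM at W3.25. At W3.5 the rise was 2.38 on the log2 scale (SE 0.17, adjusted p = 4.7e-09). TraesCS1B02G477900 (chr1B:686682265-686684346) had 8.66, 9.90, 11.8 and 13.9 CPM at W3.25, against 0.651, 0.668, 1.09 and 1.40 CPM at W3.0, and 33.8 CPM at W3.5. TraesCS3B02G577000 averaged 0.138 CPM at W3.0, 2.20 CPM at W3.25 and 6.21 CPM at W3.5. The other late rises chosen by size were that of TraesCS4B02G070300 at W3.25, to 1.65 CPM, and those of TraesCS3B02G084800 and TraesCS1A02G383300 at W3.5, to 2.52 and 1.86 CPM. TraesCS1A02G383300 was also called higher at W3.25 against W3.0, a call lost in 15 of the fits that left out 1 library, at log2 fold changes from 2.75 to 3.60.

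Late falls by the same rule were those of TraesCS2B02G056700, TraesCS2A02G044600 and TraesCS7A02G466400 at W3.25. They averaged 0.198, 0.0960 and 0.142 CPM at W3.25, against 4.77, 1.96 and 2.59 CPM at W3.0, and the call for TraesCS7A02G466400 was lost without W3.0 replicate 3, at a log2 fold change of -3.90. At W3.5, TraesCS7A02G506400 (chr7A:693858771-693860968) fell to 4.66 ± 1.69 CPM, against 11.4 ± 1.46 CPM at W3.25 (SD, n = 4 each), a call lost without W3.5 replicate 2 or 3 at log2 fold changes of -1.14 and -1.25. TraesCS7B02G413900, which overlaps another model, fell to 0.977 CPM, against 2.89 CPM. TraesCS4B02G038800 fell to 0.179 CPM, against 1.17 CPM. This call was lost without any single library of W3.25 or without W3.5 replicate 1, 2 or 3, with log2 fold changes from -2.93 to -2.29.

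Runs of neighbouring distal genes were called in the same direction in places. The longest run of consecutive distal genes called in 1 direction at W3.0 against W2 was at the low end of 7A, where 10 genes from TraesCS7A02G004100 to TraesCS7A02G008300 (chr7A:1992593-3783131) were all lower, with log2 fold changes from -2.45 to -0.34 and a median of -1.18. The last, TraesCS7A02G008300, had 21.6, 25.6, 26.6 and 32.8 CPM at W3.0, against 44.3, 54.1, 71.4 and 71.6 CPM at W2. TraesCS7A02G005200, within the run, averaged 18.1 CPM at W3.0, against 30.3 CPM at W2. The longest run higher at W3.0 was 6 genes at the low end of 5A, from TraesCS5A02G008000 to TraesCS5A02G008500 (chr5A:5286347-6165534), with log2 fold changes from 0.31 to 1.58.

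Between W1 and W2 the longest run lower was 7 genes at the high end of 2B, from TraesCS2B02G612200 to TraesCS2B02G615800 (chr2B:791470975-793506292). Changes within it were unequal, from -0.23 for TraesCS2B02G613800 to -5.19 for TraesCS2B02G613500 on the log2 scale. TraesCS2B02G615800 had 21.2, 21.8, 22.2 and 26 CPM at W2, against 46.1, 48.3, 54.1 and 55.3 CPM at W1. The longest run higher was 4 genes at the low end of 3A, from TraesCS3A02G029400 to TraesCS3A02G029800 (chr3A:15567126-15692321), with log2 fold changes from 0.96 to 2.93. The call for TraesCS3A02G029800 was lost without W2 replicate 3, at a log2 fold change of 2.56. These runs were picked as the longest, and no test was made of their length. They pass over gene models that the rule left out, and runs were not looked for among other genes.

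Other groups of neighbours varied between libraries of the same stage. Distal genes were read in windows of 8 neighbours, a size chosen after the data were seen. In each library, the deviations of log2 CPM from the stage mean were averaged over the 8 genes. The SD of this average between libraries of a stage had a median of 0.0858 over these windows and 0.0753 over windows of other genes. Windows were not matched for level. The 3 windows with the largest SD among distal genes are described here, and the largest SD among windows of other genes was higher, at 0.783 against 0.539. At the high end of 2A, 8 genes (chr2A:748546309-748961404) had spans of 258 to 1654 bp and a median sum of 38.1 CPM over all libraries. Their sum ran from 30.6 to 69.2 CPM among the W3.25 libraries and from 15.8 to 40.6 CPM among those of W3.5. It was highest in W3.25 replicate 2, as were 4 of the 8 genes, and lowest in W3.5 replicate 3, as were 4. None was a DEG between consecutive stages.

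At the high end of 2B (chr2B:753928992-754152367) the window with the next largest SD, 0.492, was also highest in W3.25 replicate 2 and lowest in W3.5 replicate 3. Its sum ran from 29.9 to 73.1 CPM among the W3.25 libraries and from 20.4 to 44.0 CPM among those of W3.5. Of its 8 genes, 6 were highest and 1 was lowest in these 2 libraries. TraesCS2B02G561600, in this window, was a DEG, higher at W3.0 than at W2. The outermost 8 distal genes of the low end of 1A (chr1A:40098-403751) were highest in W3.5 replicate 4, where their sum was 63.2 CPM, and each of the 8 had its highest level in that library. The other W3.5 libraries had sums from 29.7 to 35.7 CPM. Over all libraries the sum was lowest in W3.25 replicate 4 at 14.9 CPM, and the W3.25 libraries reached at most 30.8 CPM. Of the 8 genes, 6 overlap another gene model. The part of these libraries in the stage comparisons of the genes was not tested.

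**Figure D5:**
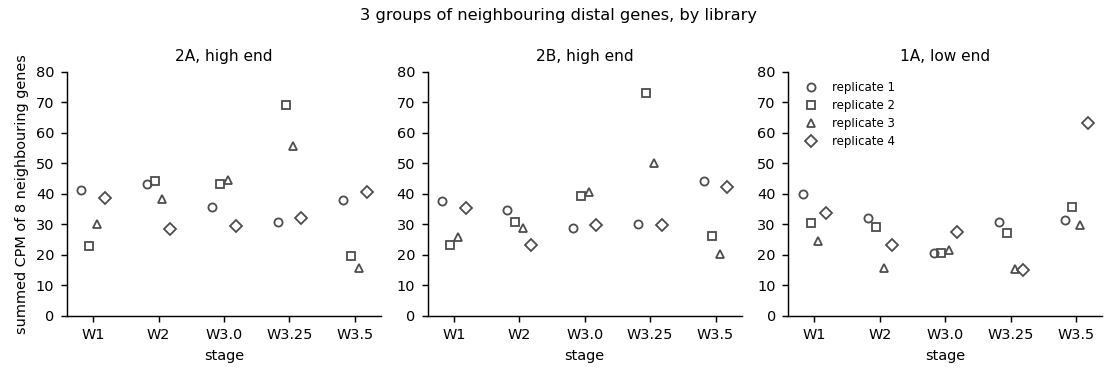
Summed CPM of 8 neighbouring distal genes in each of the 20 libraries, by stage. The 3 windows are those with the largest SD, between libraries of a stage, of the averaged log2 deviation of their genes. The windows on 2A and 2B are highest in W3.25 replicate 2 at 69.2 and 73.1 CPM, and the window on 1A in W3.5 replicate 4 at 63.2 CPM.

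Of the 5 distal genes with the most reads, 4 were lower at W3.5 than at W1 and 1 was not a DEG. In the highest of the 4 classes by mean CPM, 43.8% of distal genes and 42.2% of other genes were lower in this comparison. TraesCS1A02G350200 (chr1A:535062101-535064765), which overlaps another model, averaged 2116, 2110, 1951, 1894 and 1716 CPM over the stages, and was lower at W3.5 than at W1 with a change of -0.30 on the log2 scale (SE 0.04, adjusted p = 7.48e-07). TraesCS5B02G492500 and TraesCS5A02G479300 had log2 fold changes of -0.31 and -0.36 in that comparison. With library totals alone, log2 fold changes in that comparison shifted upwards by a median of 0.20 over all gene models tested. TraesCS2A02G083000 fell to 946 CPM at W3.5, against 1553 CPM at W1. TraesCS7A02G552400 was a DEG in none of the 5 comparisons, with stage means from 1275 to 1404 CPM.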

How the data were processed

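The authors trimmed single 100 bp reads with Fastp, aligned them with STAR 2.7.5 to the IWGSC RefSeq assembly of wheat and made the deposited raw counts with featureCounts over whole gene spans, without strand, at a mapping quality of at least 40. Reads over more than 1 model were dropped. The D chromosomes were not in that reference, so all gene models of the D genome in the table, 79047, held 0 counts. They were left out. Coordinates are those of the deposited count table.

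Counts were analysed in R 4.3.3 with edgeR 4.0.16 (TMM, quasi-likelihood test) and DESeq2 1.42.0 (Wald test), with stage as the only factor over 20 libraries. filterByExpr, grouped by stage with its minimum count set to 10 and its minimum total count to 15, kept 48336 gene models. P-values were two-sided and adjusted over all of these by Benjamini-Hochberg. SE was the log2 fold change over the root of F. Against a stage at 0, folds took 3 counts in that stage as floor, and counting intervals cover counting error only. Python 3.11.15 with matplotlib 3.10.9 made the figures. The calling of DEGs was also run on simulated counts, with the same variation set for all genes and changes at W2 only. Other steps were not run on simulated data.

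Distal genes, lists and rules for naming genes were chosen with earlier results of these data known. Named were all annotated distal genes, the 5 largest changes in each direction for the first 2 steps and 3 for the later ones among DEGs without overlap between libraries, the 5 genes with most reads and the ends of the longest runs. The reference table at hand matched 0 of the gene identifiers, so no further names or sequences were used. Alternatives covered the tool, scaling, filter, threshold, libraries in the fit, replicate block, outer fraction and leaving out each library.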

Additional observations from a re-analysis of the deposited data

Results flagged for a closer look

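Values of the 4 libraries of a stage were examined in 256 groups. Most were of named genes with at least 10 counts in each library. The rest were of the summed CPM of the windows above and of the share of counts in distal genes. In 14 groups, all of named genes, the gap of 1 library to the nearest other exceeded Dixon's 95% critical share of the group's range. Chance gives about 1 in 20 such groups. Gaps are given as a share of the range.

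At W1, TraesCS3A02G449300 had 79.7 CPM in replicate 1 and 90.6 to 92.2 CPM in the others (gap 0.875). At W2, replicate 1 had 20.5 CPM of TraesCS5A02G482800, the photosystem I subunit IV gene, and the others 25.7 to 26.1 CPM (gap 0.938). TraesCS5A02G532000 had 5.83 CPM in W2 replicate 2 and 14.7 to 15.8 CPM in the others (gap 0.890). Replicate 4 of W2 had 9.12 CPM of TraesCS7B02G413900, with 7.23 to 7.46 CPM in the others (gap 0.876), 35.1 CPM of TraesCS7A02G506400, with 24.7 to 25.8 CPM (gap 0.888), and 2040 CPM of TraesCS1A02G350200, with 2124 to 2141 CPM (gap 0.833). Replicate 3 of W2 had 1968 CPM of TraesCS5B02G492500, with 1921 to 1929 CPM in the others (gap 0.842), and 1611 CPM of TraesCS5A02G479300, with 1565 to 1572 CPM (gap 0.840).

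At W3.25, TraesCS3B02G577000 had 3.06 CPM in replicate 2 and 1.85 to 1.96 CPM in the others (gap 0.904). TraesCS2B02G615800 had 23.9 CPM in W3.25 replicate 3 and 27.3 to 27.9 CPM in the others (gap 0.868). At W3.5, the ERF gene TraesCS3B02G042400 had 67.0 CPM in replicate 4 and 58.1 to 59.2 CPM in the others (gap 0.872). The Trihelix gene TraesCS4B02G019200 had 29.0 CPM in W3.5 replicate 1 and 34.7 to 35.4 CPM in the others (gap 0.887). The GATA gene TraesCS4B02G374400 had 3.24 CPM in W3.5 replicate 3 and 1.16 to 1.37 CPM in the others (gap 0.903). TraesCS1B02G388200 had 0.620 CPM in W3.5 replicate 2 and 2.05 to 2.24 CPM in the others (gap 0.882).

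Counts also fell outside the genes compared. The 37501 low-confidence gene models in the outer 10% of the chromosomes held 7922283 counts over the 20 libraries, and 2269 of them reached 200 counts. The 9449 models on unanchored scaffolds held 4130976 counts.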

How the results depend on the processing

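Counts of distal DEGs followed the definition of a call and of the distal segment. In the order W2 against W1, W3.0 against W2, W3.25 against W3.0, W3.5 against W3.25 and W3.5 against W1, a 2-fold minimum gave 827, 1109, 44, 23 and 1950. The outer 5% gave 1495, 1325, 48, 53 and 2937, and the outer 20% gave 5091, 4311, 194, 172 and 10099, with 3692 and 12743 genes changed over the stages. These segments held 5553 and 18723 tested genes. Their shares called were 26.9% and 27.2% at W2 against W1, close to the 26.9% of the outer 10%. At W3.0 against W2 they were 23.9% and 23.0%, beside 23.4%. At W3.25 against W3.0, DESeq2 alone gave 166 and an adjusted p of 0.05 gave 229. Without the low count filter only edgeR was run, and it called 379, against 102 for edgeR alone with the filter. At W3.5 against W3.25, DESeq2 alone gave 184, an adjusted p of 0.05 gave 268 and a fit of only the compared stages 224. There edgeR alone called 391 without the filter and 98 with it. The cause was not tested.

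With all counts as denominator, the shares were 26.68, 26.60, 26.22, 26.18 and 25.98% from W1 to W3.5.

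Leaving out 1 library at a time gave 2263 to 2776, 2051 to 2690, 56 to 130, 34 to 172 and 5092 to 5463 DEGs in the same order, and 6673 to 6989 genes changed over the stages. At W3.25 against W3.0 the count fell to 62 and 59 without W3.0 replicates 3 and 4, and to 56 without W3.25 replicate 3 or 4. At W3.5 against W3.25 it was 172 without W1 replicate 1, 49, 63 and 59 without W3.25 replicates 1, 3 and 4, and 54, 43 and 34 without W3.5 replicates 1, 2 and 3.

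The replicate block gave 2594, 2329, 101, 105 and 5294 DEGs and 6873 genes changed. Replicate numbers did not pair the libraries: over 40 pairs with the same number the median correlation of deviations from stage means was 0.00215, and 1 pair exceeded 0.1.

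The ratio of the percentages called lower at W3.0 against W2, distal over other genes, was 1.22, with 1.51 under the 2-fold minimum and 1.19 to 1.30 under all other settings. Of the named calls, 6 of 42 were lost under at least 1 setting at W2 against W1, 7 of 39 at W3.0 against W2, 4 of 14 at W3.25 against W3.0, 3 of 9 at W3.5 against W3.25 and 2 of 55 at W3.5 against W1, and 0 reversed.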
